A study of Mus musculus with 6 samples.

Results

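The collagen crosslinking and hydroxylation enzymes described here are 10 genes, taken by symbol from the 54532 genes of a table of read counts: the lysyl oxidases Lox, Loxl1, Loxl2, Loxl3 and Loxl4, the lysyl hydroxylases Plod1, Plod2 and Plod3, and the prolyl 4-hydroxylase alpha subunits P4ha1 and P4ha2. All 10 were found, each in a single row, and all 10 passed the filter on low counts. Sequencing of poly-A RNA covered 6 libraries, 3 of each sex, from cultures labelled as aortic endothelial cells (MAEC) of wild-type mice. No culture was treated, and the medium of all was F-12 to which 20% serum, growth factors for endothelium and heparin were added. The sources used here do not give the age or strain of the mice, nor whether replicates are different animals or cultures, so errors and p-values measure the spread among these libraries, which may be technical. The design compares female with male cells, and sex is the sole labelled difference.

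Collagen is modified inside the cell before it is secreted. Prolyl 4-hydroxylases hydroxylate proline, which stabilises the triple helix, and lysyl hydroxylases hydroxylate lysine, some of which is then glycosylated. Outside the cell, the copper-dependent lysyl oxidases oxidise lysine and hydroxylysine in collagen and elastin, and the aldehydes formed react into the covalent crosslinks that give a vessel wall its strength. In the aorta, mice lacking Lox develop aneurysms, and Loxl1 is known for the upkeep of elastic fibres.

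Library totals were 17410996 to 22993574 counts. Among male libraries, replicate 3 was least like the rest, with correlations of log2 levels to the other two of 0.966 and 0.973, against at least 0.983 among female libraries. The defining markers did not follow the endothelial label. Of 14 endothelial markers, Cdh5, Tie1, Cldn5 and Robo4 had 0 counts in every library, 11 stayed under 1 CPM (counts scaled to library size) in all 6, and the sum over the list was 59.0 to 69.2 CPM (female) and 166 to 206 CPM (male). Most of it came from Flt1 (57.9 and 70.2 CPM on average in female and male) and Plvap (3.52 and 112). All 11 fibroblast markers passed the filter, and they summed to 11890 to 12768 CPM (female) and 6537 to 7136 CPM (male), led by Col3a1 and Col1a2. Col3a1 averaged 4976 CPM in female and 2014 in male, and Col1a2 1911 and 1782. Not all of the 11 moved with the sum: Thy1 averaged 205 CPM in female and 290 in male, and Dpt 5.33 and 7.52. The sums of 8 smooth muscle markers (118 to 120 CPM in female, 142 to 176 in male, led by Smtn and Acta2) also lay apart between the sexes. So did those of 7 macrophage and leukocyte markers (29.4 to 38.4 and 12.6 to 19.0, led by Cd14 and Lyz2, with Ptprc and Itgam at 0 counts) and of 8 mesothelial and epithelial markers (7.81 to 11.4 and 2.08 to 4.38, led by Krt18 and Krt19). The last of these sums differed through Krt18 (6.47 to 9.10 CPM in female, 0.242 to 0.739 in male), while Krt19 averaged 1.41 and 1.54, and Msln and Upk3b had 0 counts in every female library and 1 to 10 in the male ones. The macrophage marker Csf1r averaged 0.331 CPM in female and 0.873 in male, and the smooth muscle marker Des 0.839 and 0.0588. Both went against the sum of their list without overlap, at no more than 28 counts per library. Adgre1 had counts in male replicate 1 alone. The marker sums move with sex, as do the enzymes called below, and the part of the markers in the enzyme differences was not tested. In such bulk samples fewer cells of a type and less RNA per cell cannot be told apart.

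Each of the lysyl oxidase and lysyl hydroxylase families held enzymes that differed between the sexes in opposite directions. Of the 10 enzymes, Loxl2 and Plod1 were higher in female libraries, Lox, Loxl3 and Plod3 were lower, and Loxl1, Loxl4, Plod2, P4ha1 and P4ha2 were not called by edgeR's quasi-likelihood test at a Benjamini-Hochberg adjusted p under 0.05. Over all 14932 tested genes, 9.68% were called higher in female, 8.62% lower and 18.3% either way. The sexes did not overlap in CPM for 6 of the 10 enzymes (the 5 called and P4ha1), against 35.9% of all tested genes. The median log2 fold change of female over male was -0.01 over the 10 enzymes and -0.01 over all tested genes. Without male replicate 3 the calls were 2 higher and 4 lower, the addition being P4ha1, while 32.7% of the genes tested in that fit were called. Summed over the 10, the female level was 2715 ± 50.6 CPM and the male level 2952 ± 38.1 CPM (SD, n = 3), and the 2665 to 2766 CPM of the female libraries lay below the 2917 to 2992 CPM of the male ones.

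**Figure D1:**
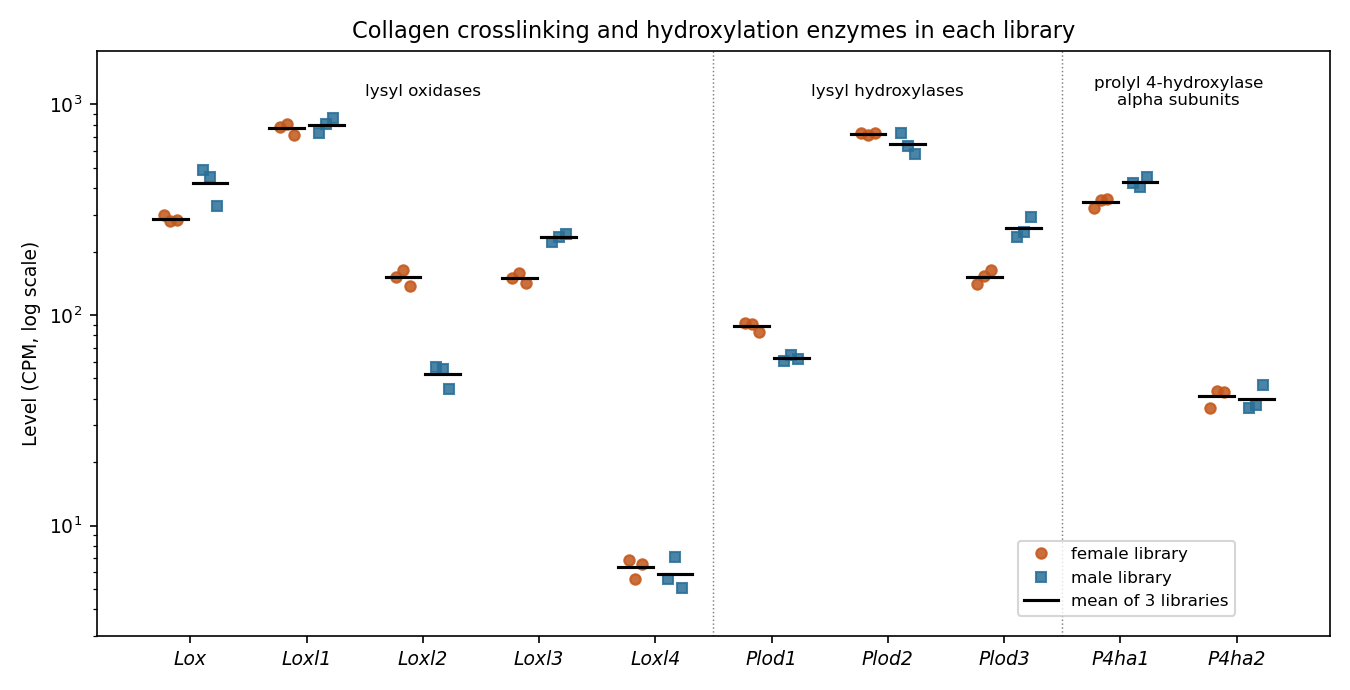
Level of each of the 10 enzymes in CPM (log axis) in each of the 3 female (circles) and 3 male (squares) libraries, with lines at the mean of 3 libraries. Loxl2 and Plod1 lie higher in all female libraries, Lox, Loxl3, Plod3 and P4ha1 lie lower, and the sexes overlap for the other 4.

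Loxl2, a lysyl oxidase with scavenger receptor domains known to crosslink collagen IV, had the largest difference of the 10. The gene lies on chromosome 14 at 69609068 to 69695834 (GRCm38). It stood at 152, 164 and 137 CPM in the female and at 56.8, 55.4 and 44.5 CPM in the male libraries. Every female library was far above every male one. The fitted difference was 2.89-fold, a log2 fold change of 1.53 ± 0.13 (SE, edgeR adjusted p = 3.16e-05), and it was 1.43 to 1.59 over the 13 alternative settings. A noncoding gene on the opposite strand, Gm27177, overlaps Loxl2 and had 7 to 37 counts per library, against 783 to 3337 for Loxl2.

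Lox, the founding member of the family, is secreted as a proenzyme that Bmp1 cleaves. On chromosome 18 (52516069 to 52529867), it had 299, 279 and 282 CPM in the female and 486, 452 and 330 CPM in the male libraries. The groups did not overlap, but male replicate 3, the library that stood apart, lay nearer to the female libraries than to the other male ones. The log2 fold change was -0.56 ± 0.15 (SE, edgeR adjusted p = 0.0257). The call did not hold when any other library was left out (adjusted p = 0.0613 without male replicate 1, 0.109 without male replicate 2, and 0.0718, 0.114 and 0.112 without female replicates 1, 2 and 3), while without male replicate 3 the log2 fold change was -0.71 (adjusted p = 1.01e-06).

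Loxl3, which like Loxl2 carries scavenger receptor domains, was lower in female libraries. Its levels were 150, 158 and 142 CPM in the female and 223, 236 and 242 CPM in the male libraries, with no overlap and little spread within either sex. The difference was -0.64 ± 0.10 on the log2 scale (SE, edgeR adjusted p = 0.00149), and it was called under every alternative setting (-0.68 to -0.61). Loxl3 lies on chromosome 6 (83034173 to 83052562), and its last 1297 bases are shared with the gene of the mitochondrial protease Htra2 on the opposite strand. Htra2 had 460 to 598 counts per library and Loxl3 2809 to 5347. Whether reads were counted by strand is not stated in the sources used here, so those in the shared bases cannot be assigned with certainty to either gene.

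The remaining lysyl oxidases were not called. Loxl1, the most abundant of the 10, had 785, 805 and 719 CPM in the female and 732, 806 and 859 CPM in the male libraries. These ranges overlap, and the log2 fold change was -0.05 ± 0.11 (SE, edgeR adjusted p = 0.796). Loxl4 was the least abundant, with 89 to 161 counts per library, 6.90, 5.57 and 6.58 CPM in the female and 5.56, 7.11 and 5.06 CPM in the male libraries. Its log2 fold change of 0.10 ± 0.20 (SE, edgeR adjusted p = 0.79) had the largest standard error of the 10, and a small difference could not be detected at this depth.

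The lysyl hydroxylases act on different lysines: Plod1 mainly on those of the helix and Plod2 on those of the telopeptides, while Plod3 is also a glucosyltransferase. Plod1 stood at 92.0, 90.7 and 82.9 CPM in the female and 60.3, 64.7 and 61.8 CPM in the male libraries, with every female library above every male one. The log2 fold change of 0.51 ± 0.10 (SE, edgeR adjusted p = 0.00647) was called with all libraries and not without female replicate 2 (adjusted p = 0.0516). Plod3 went the other way. It had 140, 153 and 163 CPM in the female and 236, 247 and 291 CPM in the male libraries, again without overlap. Its log2 fold change was -0.76 ± 0.12 (SE, edgeR adjusted p = 0.00148), and all 13 alternatives called it, between -0.83 and -0.67. Over 1003 bases at its start, Plod3 overlaps Znhit1 on the opposite strand, a gene with 440 to 651 counts per library against 2715 to 5593 for Plod3.

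Promoter sequences from RefSeq on GRCm38.p6 (250 bases before and 50 after the start that RefSeq gives) were matched for 5 of the 10 enzymes: Plod1, Plod3, P4ha1, P4ha2 and Loxl4, and not for Lox, Loxl1, Loxl2, Loxl3 and Plod2. Those of Plod1 (chr4:147936727-147937026, minus strand) and Plod3 (chr5:136986769-136987068, plus strand) are shown because these 2 genes of a family were called in opposite directions. Both are written 5′ to 3′ along the gene, and capitals mark the GC box GGGCGG, searched on both strands.
Plod1: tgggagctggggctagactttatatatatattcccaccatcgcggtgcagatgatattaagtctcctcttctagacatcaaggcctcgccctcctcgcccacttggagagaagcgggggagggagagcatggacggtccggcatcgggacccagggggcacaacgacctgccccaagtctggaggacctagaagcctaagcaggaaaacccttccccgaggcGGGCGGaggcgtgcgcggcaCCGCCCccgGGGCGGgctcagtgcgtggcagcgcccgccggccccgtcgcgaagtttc
Plod3: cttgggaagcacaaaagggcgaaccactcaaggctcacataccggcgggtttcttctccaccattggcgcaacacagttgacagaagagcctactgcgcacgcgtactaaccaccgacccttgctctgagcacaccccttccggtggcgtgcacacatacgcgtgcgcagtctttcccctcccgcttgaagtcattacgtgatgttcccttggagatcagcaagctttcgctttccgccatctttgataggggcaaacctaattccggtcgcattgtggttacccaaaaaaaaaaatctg
The Plod1 window holds 3 GC boxes, 2 on its own strand and 1 on the opposite strand, all close to the start of the gene, and the Plod3 window holds 0. GC boxes were found in 35.7% of the 32851 promoter windows in the table. The bases C and G made up 64.3% of the Plod1 window and 53.3% of the Plod3 window, with 25 and 19 CG dinucleotides. ACGTG is a form of the core of the hypoxia response element. On either strand, it was found 0 times in the windows of Plod1 and Loxl4. It was found 1 time in those of Plod3 and P4ha1, 2 times in that of P4ha2, and in 19.6% of all windows. The form GCGTG, which the Plod1 and Plod3 windows above also hold, was not searched, so these counts are for ACGTG alone. The P4ha2 window (54100674 to 54100973 on chromosome 11) does not hold the start of the gene as counted, which is at 54100095, so its matches belong to the RefSeq start alone. The letters TATAAA (13.6% of all windows) were in the windows of Plod1 and P4ha1, and CCAAT (37.4%) was in that of Plod3, again on either strand. These matches describe the letters only. The Plod3 window lies wholly inside the span of Znhit1.

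Plod2, the abundant lysyl hydroxylase of these cultures and a known hypoxia target, was not called. Female libraries had 731, 715 and 733 CPM and male libraries 730, 635 and 584 CPM. The female values were close together, and male replicate 1 fell among them. The log2 fold change was 0.16 ± 0.12 (SE, edgeR adjusted p = 0.401).

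Of the prolyl 4-hydroxylase subunits, which carry the catalytic site and pair with the disulfide isomerase P4hb, neither was called by edgeR on all libraries. P4ha1, the main catalytic subunit, had 321, 352 and 356 CPM in the female and 426, 407 and 452 CPM in the male libraries. Every female library was below every male one, with a log2 fold change of -0.32 ± 0.10 (SE, edgeR adjusted p = 0.0633). P4ha1 was called lower in female by DESeq2 (adjusted p = 0.0124), by limma-voom with quality weights (adjusted p = 0.00641) and by edgeR without male replicate 3 (adjusted p = 0.0174). P4ha2 overlapped fully, with 36.2, 43.8 and 43.3 CPM in the female and 36.0, 37.3 and 46.6 CPM in the male libraries (log2 fold change 0.04 ± 0.14 SE, edgeR adjusted p = 0.88).

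Within each family the shares of some enzymes did not overlap between the sexes, as the plot of family shares shows. Since a share also depends on the other members, that of an enzyme not called, such as Plod2, can differ too. Shares were taken from levels per length (CPM per kb of gene length), and no test was made on them. Among the lysyl oxidases, Loxl2 made up 7.87 ± 0.349% of the level in female and 2.47 ± 0.325% in male libraries, and Loxl3 9.18 ± 0.173% and 13.0 ± 0.447% (SD, n = 3 for each share). The share of Loxl1 overlapped between the sexes, at 65.7 ± 0.549% in female and 61.8 ± 4.40% in male libraries. Lox took 16.8 ± 0.918% and 22.4 ± 4.49%. The sexes did not overlap, but male replicate 3 and female replicate 3 both round to 17.5%. Of the lysyl hydroxylase level, Plod3 held 18.5 ± 1.20% in female and 30.7 ± 4.47% in male libraries, Plod2 74.3 ± 0.856% and 64.4 ± 4.69%, and Plod1 7.22 ± 0.493% and 4.94 ± 0.371%, none of them overlapping. The summed lysyl hydroxylase level was alike in size, 181 ± 2.49 CPM per kb in female and 187 ± 8.46 in male libraries. Of the summed level of P4ha1 and P4ha2, P4ha1 made up 92.7 ± 0.356% in female and 94.2 ± 0.549% in male libraries. This sum leaves out P4ha3, which stood at 0.457 ± 0.103 CPM per kb in female and 4.32 ± 0.598 in male libraries (SD, n = 3). P4ha2 stood at 6.59 and 6.41. The higher share of P4ha1 in male libraries therefore holds for this pair and not with P4ha3 counted.

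**Figure D2:**
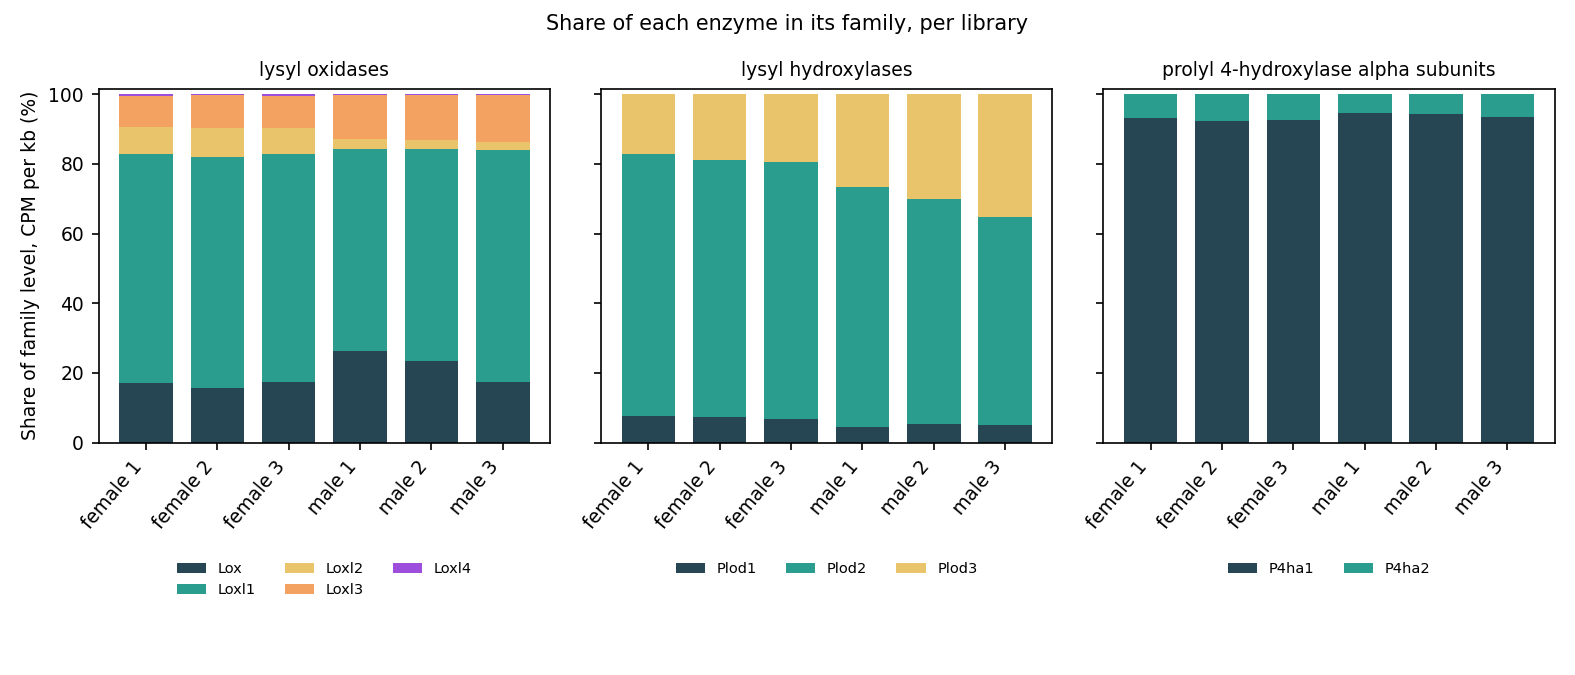
Share of each enzyme in the summed level (CPM per kb, percent) of its family, as stacked bars for each of the 3 female and 3 male libraries. P4ha3 is not counted. The Plod3 band is 17.2 to 19.6% in female and 26.5 to 35.4% in male libraries, and the Loxl2 band 7.58 to 8.26% and 2.11 to 2.74%.

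Ordered by level per length, the 10 enzymes ranked alike in both sexes: Loxl1, Plod2, P4ha1, Lox, Plod3, Loxl3, Loxl2, Plod1, P4ha2 and Loxl4. In female libraries the levels ran from 233 ± 13.6 CPM per kb for Loxl1 to 1.51 ± 0.165 for Loxl4 (SD, n = 3), and only Plod3 (33.6 ± 2.54) and Loxl3 (32.6 ± 1.70) overlapped as neighbours. Male libraries ran from 242 ± 19.3 to 1.40 ± 0.253 CPM per kb (SD, n = 3). There the neighbours Plod2 (120 ± 13.8) and P4ha1 (104 ± 5.54) overlapped, as did P4ha1 and Lox (87.9 ± 17.1), Plod3 (57.0 ± 6.47) and Loxl3 (50.8 ± 2.15), and Loxl2 (9.67 ± 1.24) and Plod1 (9.20 ± 0.336). Loxl2 was thus level with Plod1 in male libraries and above it in female libraries, at 28.0 ± 2.53 against 13.1 ± 0.724 CPM per kb (SD, n = 3).

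The other genes of collagen biosynthesis were taken from a list of 26, of which 23 were tested, 1 was called higher in female, 7 lower and 15 not called, beside 9.68% higher and 8.62% lower over all tested genes. Their median log2 fold change was -0.26, against -0.01 over all tested genes, and 12 of the 23 did not overlap, beside 35.9% of all tested genes. Without male replicate 3 the calls were 2 higher and 11 lower, in a fit that called 32.7% of all genes tested. P3h2, Colgalt2 and Tll2 stayed under 1 CPM in every library and were not tested.

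Among partners of the prolyl hydroxylases, 1 of 7 tested genes was called, beside 18.3% of all tested genes. P4ha3, the remaining catalytic alpha subunit, had 1.69, 1.07 and 1.54 CPM in the female and 12.5, 15.7 and 12.4 CPM in the male libraries (log2 fold change -3.22 ± 0.23 SE, edgeR adjusted p = 1e-05). Even in male libraries P4ha3 was low per length, 4.32 ± 0.598 CPM per kb (SD, n = 3) beside 104 for P4ha1 and 6.41 for P4ha2. The beta subunit gene P4hb (1330 ± 40.9 CPM in female, 1412 ± 158 in male; SD, n = 3) was not called. Crtap, which with P3h1 and Ppib forms the prolyl 3-hydroxylation complex, had a log2 fold change of -0.35 ± 0.12 (SE, edgeR adjusted p = 0.0699), P3h1 0.15 ± 0.11 and Ppib 0.03 ± 0.14, none of them called by edgeR on all libraries. Crtap was called lower in female by DESeq2 (adjusted p = 0.0228), by limma-voom (adjusted p = 0.00538), and by edgeR when male replicate 1 (-0.42, adjusted p = 0.0387) was left out, and likewise when replicate 3 of that sex was (-0.25, adjusted p = 0.0317). P3h1 was called higher by limma-voom (0.22, adjusted p = 0.012) and by edgeR without male replicate 3 (0.23, adjusted p = 0.047).

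Procollagen processing held 5 of the 8 calls, from 7 tested genes, beside 18.3% of all tested genes called either way. Bmp1, the protease that removes the C-propeptide of procollagen and activates Lox, stood at 426, 425 and 404 CPM in the female and 698, 742 and 730 CPM in the male libraries, a log2 fold change of -0.79 ± 0.10 (SE, edgeR adjusted p = 0.000385). Its enhancer Pcolce was lower in female, at 188 ± 5.47 CPM against 398 ± 70.6 (SD, n = 3; edgeR adjusted p = 0.000386). The related Pcolce2 (-4.03 ± 0.56 SE, edgeR adjusted p = 0.000697) was at 12.4 ± 1.43 CPM (SD, n = 3) in male and at or below 1.41 CPM in every female library, with 1 count in female replicate 3. Its log2 fold change was -3.43 without that library and -4.72 without female replicate 2. Of the N-propeptide proteases, Adamts14 was higher in female (0.58 ± 0.13 SE, edgeR adjusted p = 0.0102, and 0.0630 and 0.0533 without female replicates 1 and 2). Adamts3, at or below 1.94 CPM in all libraries, was lower (-2.26 ± 0.49 SE, edgeR adjusted p = 0.00958, and 0.0541 and 0.0531 without female or male replicate 1). Adamts2 was not called by edgeR (0.25 ± 0.10 SE, adjusted p = 0.136) and was called higher by limma-voom (0.20, adjusted p = 0.0254).

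In the remaining groups 2 genes were called. Fkbp14, a prolyl isomerase of the endoplasmic reticulum that binds collagen, was lower in female, at 80.8 ± 5.52 CPM against 153 ± 11.1 (SD, n = 3; edgeR adjusted p = 0.000249). The gene overlaps Plekha8 (236 to 511 counts per library) on the opposite strand. Of the other chaperones Serpinh1 (HSP47), Fkbp10 and Mia3 were not called. Fkbp10 overlaps Nt5c3b (527 to 809 counts per library) on the opposite strand. The zinc transporter gene Slc39a13 had a log2 fold change of -0.53 ± 0.12 (SE, edgeR adjusted p = 0.0108, and 0.0544 and 0.0620 without female replicates 2 and 3). It shares 4579 bases with Psmc3 on the opposite strand, which had 2399 to 3230 counts per library, more than Slc39a13 itself, so its value is uncertain. Neither the transglutaminase gene Tgm2 nor the galactosyltransferase gene Colgalt1 was called. Tgm2, with 1629 to 2516 counts per library, shares 15896 bases with Rprd1b (569 to 834 counts) on the opposite strand. Colgalt1 shares 495 bases with Unc13a (215 to 422 counts), also on the opposite strand. Pxdn, the peroxidase that crosslinks collagen IV, was not called by edgeR on all libraries (-0.38 ± 0.16 SE, adjusted p = 0.14). It was called lower without male replicate 3 (-0.54, edgeR adjusted p = 5.73e-05), by limma-voom (-0.58, adjusted p = 7.14e-05) and by edgeR without the filter on low counts (adjusted p = 0.0296). Atp7a, the pump that loads lysyl oxidases with copper, is encoded on chromosome X, and a part of this in its values was not tested. Atp7a had 41.2, 24.5 and 23.0 CPM in the female and 57.4, 48.5 and 15.6 CPM in the male libraries. As with Lox, the lowest male value was in male replicate 3, here below every female library. Atp7a was not called by edgeR with the filter on all libraries (adjusted p = 0.515). It was called lower by edgeR without male replicate 3 (log2 fold change -0.84, adjusted p = 0.0472), by limma-voom (-0.80, adjusted p = 0.00541) and by edgeR without the filter on low counts (-0.46, adjusted p = 0.0248).

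**Figure D3:**
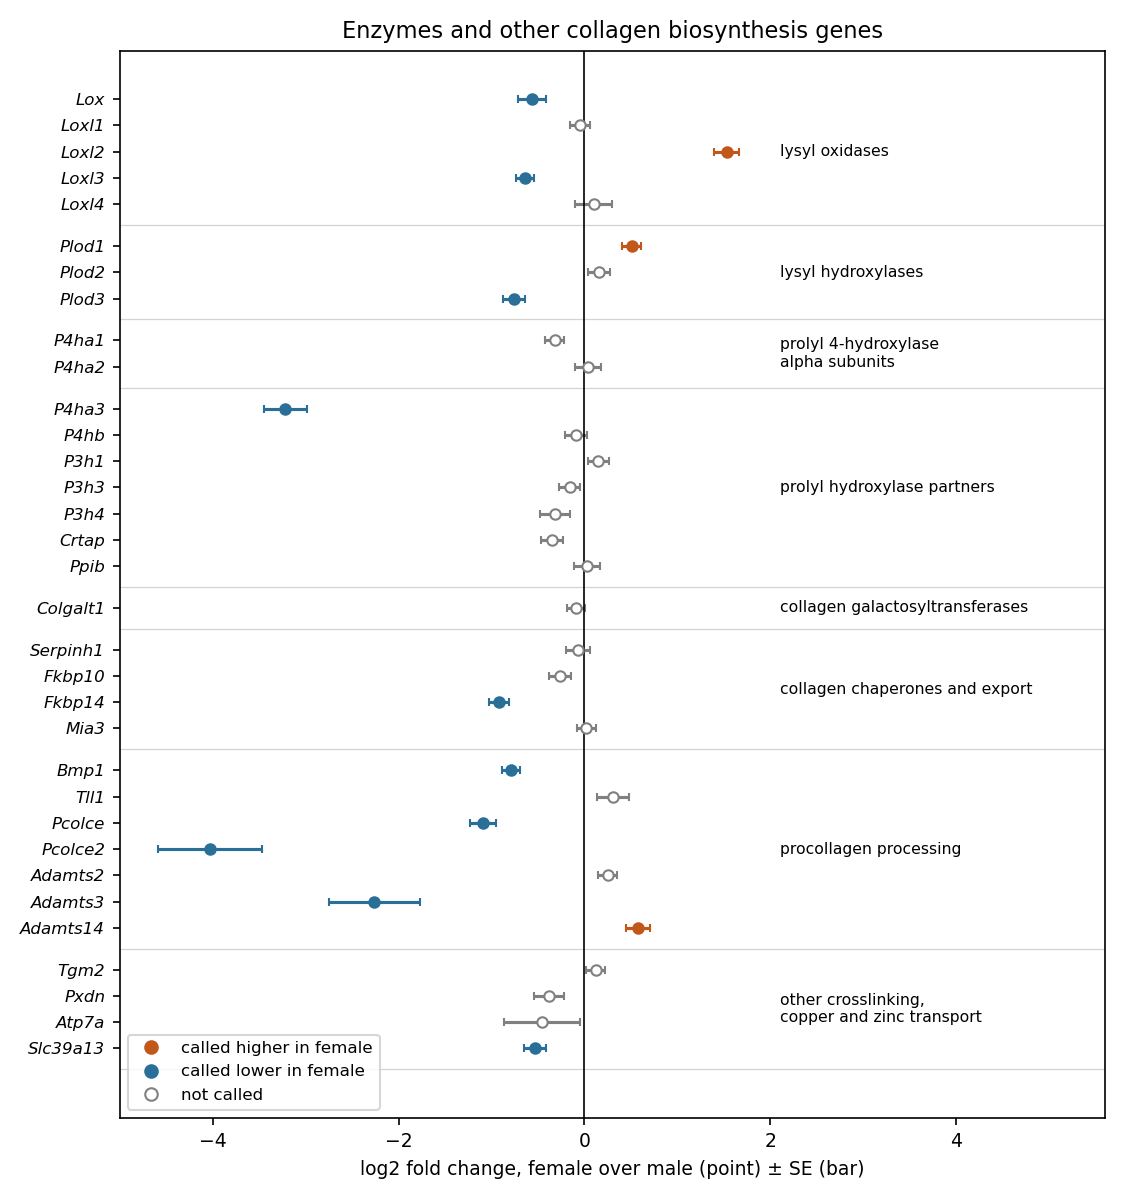
Log2 fold change of female over male (points) with its SE (bars) for the 10 enzymes and the 23 other tested genes of collagen biosynthesis, grouped by role; filled points were called by edgeR and open points were not. Loxl2 is farthest to the right and Pcolce2 and P4ha3 farthest to the left.

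Of 8 substrates of the enzymes, 1 was called higher in female, 3 lower and 4 not, while 18.3% of all tested genes were called either way. Col3a1 rose by 1.30 ± 0.12 (SE, edgeR adjusted p = 4.08e-05), and Col4a1, of the basement membrane, fell by 1.35 ± 0.12 on the log2 scale (SE, edgeR adjusted p = 3.57e-05). Eln, the elastin gene, was low and lower in female, at 6.64 ± 1.22 CPM against 13.9 ± 1.99 (SD, n = 3; edgeR adjusted p = 0.00334). Several of the 10 enzymes are known hypoxia targets. Of 14 hypoxia targets outside the enzymes, 6 were called higher in female, 0 lower and 8 not (median log2 fold change 0.34), beside 9.68% higher and 8.62% lower over all tested genes. The largest called changes were those of Egln3 (2.13 ± 0.11 SE, edgeR adjusted p = 1.78e-06), Ankrd37 (2.03 ± 0.30, 0.001) and Vegfa (1.80 ± 0.10, 2.96e-06). Of the targets not called, Pgk1 (-0.32), Egln1 (-0.19), Ldha (-0.18) and Aldoa (-0.16) lay below 0. Car9 (0.86), Ndrg1 (0.32), Pdk1 (0.25) and Hk2 (0.15) lay above. For Pgk1, on chromosome X, every female library was below every male one. The enzymes P4ha1, P4ha2, Plod2 and Lox stood at -0.32, 0.04, 0.16 and -0.56. Loxl2 and Plod1 stood at 1.53 and 0.51, Loxl1 and Loxl4 at -0.05 and 0.10, and Loxl3 and Plod3 at -0.64 and -0.76. A link of these values with the hypoxia targets was not tested.

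Over the 6 libraries, the genes whose log2 CPM was most like that of each called enzyme were Pik3r5 and Tnfaip3 for Loxl2 (Pearson r = 0.9996 and 0.999), Sidt2 and Ogfod1 for Lox (0.999 for each), Tgfb3 and Kazn for Loxl3 (0.999 and 0.998), Nlrc5 and E2f2 for Plod1 (0.999 and 0.998), and Prnp and 3110039M20Rik for Plod3 (0.998 for each). For the enzymes not called they were Dph7 and Serf2 for Loxl1 (0.997 and 0.995), Gm10509 and Slc30a1 for Loxl4 (0.982 and 0.975), Gm16184 and Gprasp1 for Plod2 (0.997 and 0.995), Nde1 and Fads2 for P4ha1 (0.996 for each), and Haus1 and Ndufaf2 for P4ha2 (0.994 and 0.993). This describes likeness only: 14647 genes were compared over 6 libraries in 2 groups, and the difference between the sexes enters r. At an r of 0.98 or more, 284 genes followed Loxl2, 242 Loxl3, 118 Plod1, 111 Lox and 107 Plod3, against 1 to 38 for the enzymes not called. None of the 10 enzymes was among the 2 closest genes of another.

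The plot of fold changes under each setting shows how far the 10 values moved. The calls of Loxl2, Loxl3 and Plod3 held in all 13 alternative fits, that of Plod1 in 12 and that of Lox in 8. P4ha1 kept its sign in all 13 and was called in 3.

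**Figure D4:**
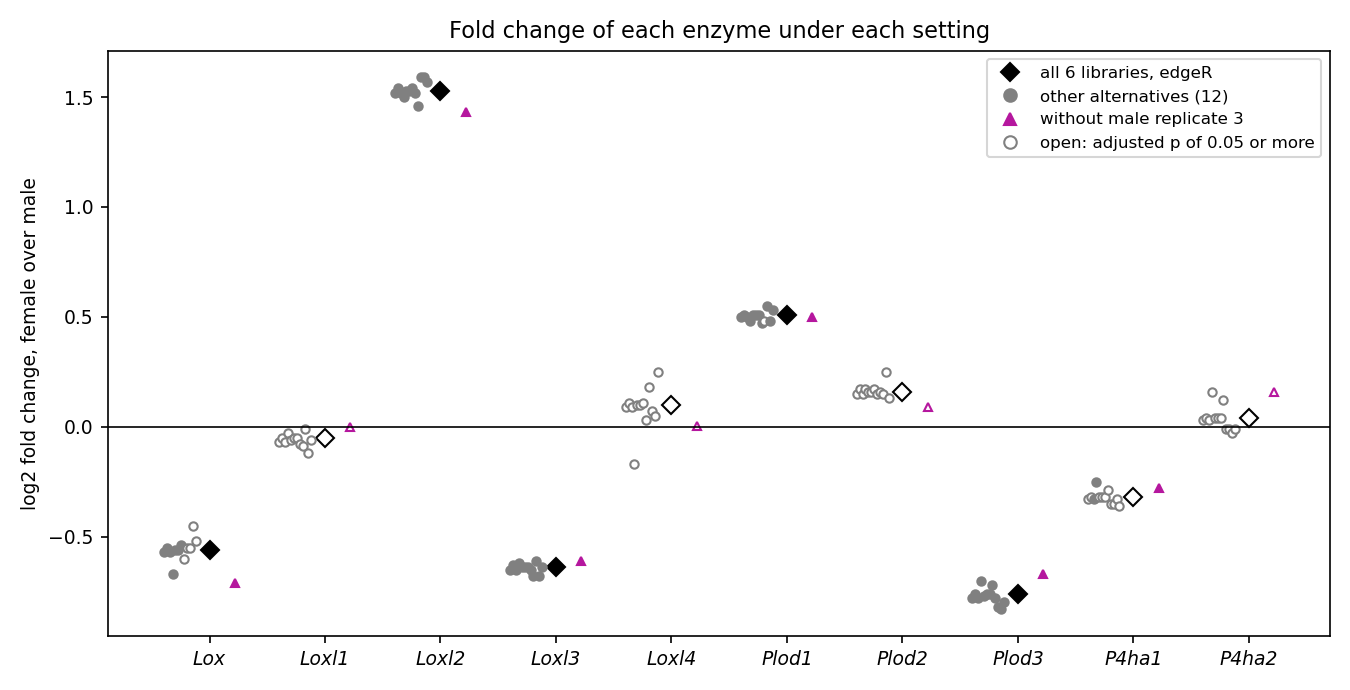
Log2 fold change of female over male for each enzyme with all 6 libraries (diamonds), under 12 other settings (circles) and without male replicate 3 (triangles); open symbols have an adjusted p of 0.05 or more. Points of Loxl2 lie between 1.43 and 1.59, and those of Loxl4 and P4ha2 fall on both sides of 0.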

How the data were processed

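The authors deposited a single table of whole-number counts per gene for 6 libraries, without normalization, with a gene length in bases for each gene. The tools named, per the submitters' processing notes, are featureCounts 1.5 and HISAT2 2.0.5. The sources used here do not state build, annotation or strand setting. Of the deposited gene identifiers, 99.8% were in GENCODE M21 (GRCm38), and 98.3% of these, with 9 of the 10 enzymes, had the same coordinates. Lox differed by 2 bases at its 3′ end.

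Tests used edgeR 4.0.16 under R 4.3.3 (quasi-likelihood F test, robust dispersions, TMM, filterByExpr with a minimum count of 10). Sex was the only term, p-values were adjusted over all 14932 tested genes by Benjamini-Hochberg, and a call is an adjusted p under 0.05. CPM use TMM-scaled totals. The fit was tested on simulated data. Groups follow the labelled sex.

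The enzymes and gene lists were chosen with earlier results of these data known. Named were all enzymes and called pathway genes, the 3 substrates and 3 hypoxia targets with the largest called changes, the 2 genes most like each enzyme, and the leading or absent markers. Some markers that went against the sum of their list were also named, as were the hypoxia targets not called. Other pathway genes were named at choice. Aldoa has 2 rows, of which the one with more counts was used. Alternatives were 2 other filters, an adjusted p under 0.01, upper quartile or RLE scaling, limma-voom (limma 3.58.1) and DESeq2 1.42.0, a replicate block, and leaving out single libraries. Leaving libraries out of the shares, and alternatives for pathway genes, were chosen after seeing the data.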

Additional observations from a re-analysis of the deposited data

How the results depend on the processing

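Over all tested genes, 3288 were called higher and 3283 lower by limma-voom with quality weights, and 900 and 835 at an adjusted p under 0.01. Leaving out 1 library gave 967 to 2508 higher and 903 to 2543 lower. For the enzymes it gave 1 to 2 higher (1 without female replicate 2) and 2 to 4 lower, and for the pathway genes 0 to 2 higher and 6 to 11 lower. Limma-voom called 3 pathway genes higher and 11 lower, and at an adjusted p under 0.01 there were 0 higher. Signs of genes not called turned for Loxl4 by limma-voom (-0.17) and Mia3 by limma-voom (-0.02). With 1 library left out they turned for P4ha2 (-0.03 to 0.16), P4hb (-0.15 to 0.01), Serpinh1 (-0.18 to 0.03), Ppib (-0.08 to 0.19) and Mia3 (-0.02 to 0.04). The cause was not tested. Without division by gene length, Lox took 21.0% of the lysyl oxidase level in female and 27.9% in male libraries.

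With the replicate number as a block, 1619 genes were called higher and 1449 lower, with 2 enzymes higher and 3 lower, and 1 and 7 pathway genes. The correlations did not settle whether same-numbered libraries are pairs: their deviations correlated at 0.206, -0.00405 and 0.152. Female replicates 1 and 3 were closest to the male library of the same number, though female replicate 1 was nearly as close to male replicate 2 (0.184). Female replicate 2 was closest to male replicate 3 (0.104). Depth limits the genes of few counts, such as Loxl4 (89 to 161 counts per library), Adamts3 (5 to 40), Pcolce2 (1 to 300) and P4ha3 (19 to 356).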
